A study of Mus musculus with 15 samples.

Results

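The miR-17-92 cluster and its paralogs were followed in liver grafts of mice through 10 miRNAs, chosen by name with earlier results of these data known: mmu-miR-17, mmu-miR-18a, mmu-miR-19a, mmu-miR-19b, mmu-miR-20a, mmu-miR-20b, mmu-miR-25, mmu-miR-92a, mmu-miR-93 and mmu-miR-106b. They were 10 of the 567 mouse miRNAs on the array. Of the 10, 8 passed the filter on dim signals and were tested. The other two, miR-17 and miR-18a, did not pass.

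MiR-17-92 is a polycistron, 1 transcript that is cut into several miRNAs, and it is known for driving proliferation of lymphocytes and of tumor cells. Its paralogs, the miR-106b-25 and miR-106a-363 clusters, carry copies of the same miRNAs. The transcription factors MYC and E2F induce these clusters, the miR-17 seed is known to target Cdkn1a and E2f1, and miR-25 and miR-92a share a seed that targets Bcl2l11. In T cells the cluster promotes expansion after activation.

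Labeled RNA of 15 grafts was hybridized to Agilent mouse miRNA arrays in 1 color, 1 graft per array. The study asked which miRNAs change while a liver allograft passes from acute rejection to acceptance without immunosuppression. All mice were male. B10.BR livers were placed into B10.D2 recipients and taken on day 5, day 8, day 14 or day 100, with 3 grafts a day. The control was 3 syngeneic grafts of day 5. The labels of these 3 arrays also name B10.BR and B10.D2, and the group was read from the title, where syngeneic stands. The strain of the syngeneic pair is not given in the sources used here. No syngeneic graft of day 8, day 14 or day 100 was analysed here, so the day after transplantation and the allogeneic response cannot be told apart in the comparisons of those days. Whole graft RNA was measured, in which fewer cells of a type and less RNA per cell cannot be told apart.

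The mature sequences are printed because the members were compared by seed, the bases 2 to 8 that pair with a target, which stand in capitals. They were taken from RefSeq (GRCm38.p6), where all 10 names matched. The array's names carry no arm, and each was matched to the arm for which the family is known. The first 5 share the miR-17 seed.
mmu-miR-17-5p: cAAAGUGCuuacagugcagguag
mmu-miR-20a-5p: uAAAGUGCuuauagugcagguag
mmu-miR-20b-5p: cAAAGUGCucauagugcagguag
mmu-miR-93-5p: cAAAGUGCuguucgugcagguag
mmu-miR-106b-5p: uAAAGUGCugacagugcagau
MiR-18a shares its seed with no other member.
mmu-miR-18a-5p: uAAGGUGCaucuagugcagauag
The miR-19 seed is shared by 2 members.
mmu-miR-19a-3p: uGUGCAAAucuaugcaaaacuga
mmu-miR-19b-3p: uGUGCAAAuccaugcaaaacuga
The last seed is shared by miR-25 and miR-92a.
mmu-miR-25-3p: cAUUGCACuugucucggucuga
mmu-miR-92a-3p: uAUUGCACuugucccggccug

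In GRCm38.p6, the 6 members of miR-17-92 lay on the plus strand within 813 bases, at chr14:115043684-115044496. MiR-106b, miR-93 and miR-25 lay on the minus strand within 476 bases, at chr5:138165332-138165807, inside the span of Mcm7, a helicase gene of DNA replication. MiR-20b lay on the minus strand of chromosome X, at chrX:52742159-52742181, beside second copies of miR-19b and miR-92a, which the array cannot tell from those on chromosome 14. Mature miR-19a and miR-19b differed at 1 of 23 bases (U11C, counted from the 5′ end, with the base of miR-19a first). MiR-20a and miR-20b differed at 2 of 23 (U1C and U10C, with the base of miR-20a first), and miR-17 differed from each of them at 2. The probe sequences were not used here, so the share of such a signal that comes from a near-identical relative was not tested.

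Between 60 and 115 mouse miRNAs were detected per array, and no spot was saturated. Replicate 1 of day 100 had an additive error of 13.1 intensity units, where the other arrays had 2.67 to 3.66, and it detected the fewest miRNAs. Signals are given as scaled signal, in percent of the 75th percentile of the 52 miRNAs detected on all 15 arrays. Detection of a miRNA on an array required a probe with a share of 0.5 or more of its spots marked as well above background. Values below a floor of 2.70% were raised to it before log2 was taken. The arrays came from 2 slides. Slide 1 held days 8 and 14 with syngeneic replicates 1 and 2, and slide 2 held days 5 and 100 with syngeneic replicate 3. Syngeneic replicate 3 was the highest of its group for all 8 tested members. Syngeneic replicate 2 stood apart, with a Pearson r over all spots of 0.533 with replicate 1 and 0.755 with replicate 3. The calls that depend on a single array are given without it.

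MiR-17, the name-giving member of the cluster, was detected on 0 of 15 arrays, with a scaled signal between -7.73% and 0.296%. MiR-18a was detected on 2 arrays, replicates 1 and 2 of allografts of day 5. Its scaled signal was 3.23%, 1.85% and 3.8% on day 5, and at most 2.43% on every other array. These are dim values near or below the floor, and no fold was computed for either miRNA.

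**Figure D1:**
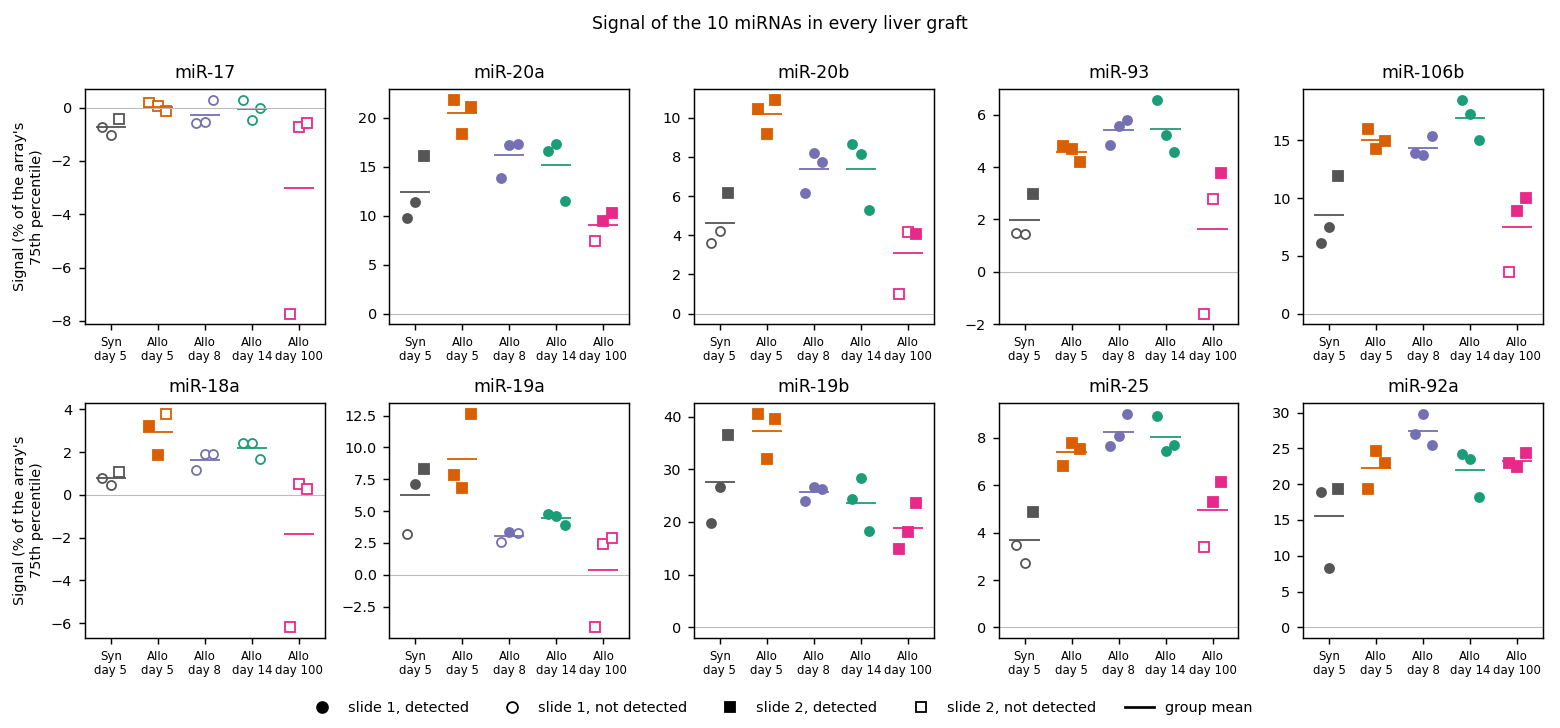
Scaled signal of each of the 10 miRNAs (vertical axis, in percent of the array's 75th percentile, on a linear scale that differs between panels) in the 5 groups of 3 grafts. Filled marks were detected and open marks were not, circles lay on slide 1 and squares on slide 2, and lines are group means. MiR-17 was open on all 15 arrays, and miR-20a sat between 18.4% and 21.9% on day 5, above every other array.

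MiR-20a, which shares the miR-17 seed and lies in the same cluster, was detected on 14 of 15 arrays. Replicates 1, 2 and 3 of the syngeneic grafts had a scaled signal of 9.81%, 11.4% and 16.1%. Allografts had 21.9%, 18.4% and 21.2% on day 5 and 13.9%, 17.3% and 17.4% on day 8. On day 14 it was 16.6%, 17.3% and 11.5%, and on day 100 7.38%, 9.5% and 10.3%. The 3 arrays of day 5 lay above all others, and those of day 100 overlapped the syngeneic arrays only at replicate 3. The order of the group means was day 5, day 8, day 14, syngeneic and day 100, and days 8 and 14, which stand next to each other, overlapped.

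MiR-20b is the copy of miR-20a in the chromosome X cluster. The scaled signal of mmu-miR-20b in syngeneic replicates 1, 2 and 3 was 3.59%, 4.2% and 6.16%. On day 5 the allografts had 10.4%, 9.18% and 10.9%, and on day 8 6.16%, 8.19% and 7.75%. The day 14 allografts had 8.64%, 8.18% and 5.28% and those of day 100 1.01%, 4.14% and 4.09%. The signal was not detected in syngeneic replicates 1 and 2 or in replicates 1 and 2 of day 100. The 3 arrays of day 5 again lay above all others, from 9.18% up. Across the 15 arrays, the log2 signals of miR-20a and miR-20b had a Pearson r of 0.98. This is a description, since the arrays share their scaling and the 2 sequences are nearly the same.

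MiR-93 shares the miR-17 seed but lies in the miR-106b-25 cluster. Its scaled signal was 1.48%, 1.46% and 2.99% in syngeneic replicates 1, 2 and 3. The day 5 allografts had 4.82%, 4.71% and 4.19% and those of day 8 4.85%, 5.59% and 5.79%. Day 14 gave 6.58%, 5.25% and 4.58% and day 100 -1.6%, 2.77% and 3.77%. It was detected on all 9 arrays of days 5, 8 and 14, and on 1 array each of the syngeneic grafts and of day 100. The arrays of days 5, 8 and 14 all lay above those of both other groups.

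MiR-106b, with the same seed and cluster as miR-93, was detected on all arrays but replicate 1 of day 100. Replicates 1, 2 and 3 of the syngeneic grafts had a scaled signal of 6.11%, 7.46% and 11.95%. Allografts had 15.9%, 14.2% and 14.9% on day 5 and 13.9%, 13.7% and 15.4% on day 8. On day 14 it was 18.5%, 17.3% and 15.01%, and on day 100 3.6%, 8.86% and 10.02%. All 9 arrays of days 5, 8 and 14 lay at or above 13.7%, and the syngeneic arrays and those of day 100 at or below 11.95%. Replicate 1 of day 100, the noisy array, was the lowest of all.

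MiR-19a lies between miR-18a and miR-20a in miR-17-92. The scaled signal of mmu-miR-19a in syngeneic replicates 1, 2 and 3 was 3.19%, 7.16% and 8.34%. On day 5 the allografts had 7.83%, 6.85% and 12.7%, and on day 8 2.54%, 3.37% and 3.31%. The day 14 allografts had 4.8%, 4.61% and 3.95% and those of day 100 -4.14%, 2.39% and 2.91%. It was detected on all arrays of days 5 and 14, on 2 syngeneic arrays, on 1 array of day 8 and on 0 of 3 arrays of day 100. Replicate 3 of day 5 was the highest.

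MiR-19b, its near-identical relative with a copy in each of 2 clusters, was detected on all 15 arrays. Its scaled signal was 19.9%, 26.6% and 36.5% in syngeneic replicates 1, 2 and 3. The day 5 allografts had 40.6%, 32.01% and 39.5% and those of day 8 24.05%, 26.6% and 26.3%. Day 14 gave 24.4%, 28.4% and 18.3% and day 100 14.8%, 18.1% and 23.5%. The syngeneic arrays had a wide spread, from 19.9% to 36.5%. Day 5 was the highest group by its mean and day 100 the lowest, and days 8 and 14 lay within the syngeneic range except for replicate 3 of day 14.

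MiR-25 is the third member of the miR-106b-25 cluster and carries the seed of miR-92a. Replicates 1, 2 and 3 of the syngeneic grafts had a scaled signal of 3.48%, 2.7% and 4.88%. Allografts had 6.82%, 7.78% and 7.54% on day 5 and 7.66%, 8.07% and 9.02% on day 8. On day 14 it was 8.9%, 7.44% and 7.69%, and on day 100 3.4%, 5.28% and 6.15%. The 9 arrays of days 5, 8 and 14 lay at or above 6.82%, and all others at or below 6.15%. It was detected on all 9, on 1 syngeneic array and on 2 arrays of day 100.

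MiR-92a, the last miRNA of miR-17-92, was detected on all 15 arrays. The scaled signal of mmu-miR-92a in syngeneic replicates 1, 2 and 3 was 18.9%, 8.28% and 19.4%. On day 5 the allografts had 19.3%, 24.6% and 22.96%, and on day 8 26.9%, 29.8% and 25.5%. The day 14 allografts had 24.3%, 23.6% and 18.1% and those of day 100 22.9%, 22.4% and 24.4%. Syngeneic replicate 2, at 8.28%, lay below every other array. Groups were compared with limma, a linear model that borrows spread across miRNAs, and a call is a Benjamini-Hochberg adjusted p under 0.05 over the 103 tested miRNAs. Its moderated F test over the 5 groups called 7 of the 8 tested members, where it called 64.1% of all 103 tested miRNAs. The exception was miR-92a (adjusted p = 0.0660), and the lowest adjusted p was that of miR-93 (0.000756). Members such as miR-93, miR-20b, miR-25 and miR-19a entered the test through the allografts in which they were detected, and the filter itself selects for a difference from the groups in which they are dim.

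Against the syngeneic grafts, limma called 4 of the 8 tested members in the allografts of day 5, where it called 25.2% of all tested miRNAs (18.4% higher and 6.8% lower). All 4 were higher. The log2 fold change was 1.16 ± 0.25 (SE, adjusted p = 0.00708) for miR-20b and 1.04 ± 0.23 (SE, adjusted p = 0.00708) for miR-25. It was 0.75 ± 0.22 (SE, adjusted p = 0.0223) for miR-20a and 0.71 ± 0.17 (SE, adjusted p = 0.0088) for miR-93. MiR-93 lay at the floor on syngeneic replicates 1 and 2, and with the floor divided by 4 its value was 1.30 without a call (adjusted p = 0.0887). MiR-106b had 0.88 ± 0.33 (SE, adjusted p = 0.0665), without a call. The arrays of both groups did not overlap for 5 members, these 4 and miR-106b, as was so for 30.1% of all tested miRNAs. For the miR-19 seed the values were 0.61 for miR-19a and 0.47 for miR-19b (adjusted p = 0.177 for each), and for miR-92a 0.62 (adjusted p = 0.114). All day 5 allografts lay on slide 2, with 1 syngeneic array. With slide as a block, which sets day 5 against syngeneic replicate 3 alone, the highest syngeneic array for each tested member, 0 of the 4 calls remained: the log2 fold change became 0.72 for miR-20b (adjusted p = 0.157), 0.61 for miR-93 (0.127), 0.59 for miR-25 (0.177) and 0.35 for miR-20a (0.406), and the values within slide 2 were the same. Of all 103 tested miRNAs, 5 were called with slide as a block and 26 without it, so the loss was not particular to the members. Without syngeneic replicate 3 there were 7 calls, miR-106b (1.15), miR-19b (0.69) and miR-92a (0.83) among them, beside 29 calls over all 103. MiR-20a lost its call without syngeneic replicate 1 (0.59) or 2 (0.70) and without day 5 replicate 1 (0.70) or 3 (0.72).

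On day 8, 4 members were called higher and 1 lower, where limma called 40.8% of all tested miRNAs (23.3% higher and 17.5% lower). MiR-25 had a log2 fold change of 1.20 ± 0.23 (SE, adjusted p = 0.00114), and miR-93 one of 0.95 ± 0.17 (SE, adjusted p = 0.000993). MiR-92a rose by 0.92 ± 0.27 (SE, adjusted p = 0.0148) and miR-20b by 0.69 ± 0.25 (SE, adjusted p = 0.0397). MiR-19a was lower, with -0.89 ± 0.31 (SE, adjusted p = 0.0377), and was detected on 1 of 3 arrays of that day. For miR-93, which lay at the floor on syngeneic replicates 1 and 2, the value was 1.54 (adjusted p = 0.0303) with the floor divided by 4. Of the others, miR-106b had 0.81 (adjusted p = 0.0612), miR-20a 0.40 (0.156) and miR-19b -0.07 (0.887). The arrays of miR-25, miR-93, miR-92a and miR-106b did not overlap, which was so for 51.5% of all tested miRNAs. Day 8 lay on slide 1 with 2 syngeneic arrays. A fit of slide 1 alone leaves out syngeneic replicate 3, the highest of its group for each tested member. That raises every log2 fold change, so the values within slide 1 are no independent support. Within that slide, miR-25 (1.42), miR-93 (1.00), miR-92a (1.13), miR-20b (0.91) and miR-106b (1.09) were called, and miR-19a was not (-0.62, adjusted p = 0.131).

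The calls of day 8 for miR-25 and miR-93 held with each array left out in turn. That for miR-19a was lost without syngeneic replicate 2 (-0.73) or 3 (-0.62) and without any of the 3 arrays of day 8 (-0.78, -0.94 and -0.93). That for miR-20b was lost without syngeneic replicate 1 (0.52) or 2 (0.64), day 8 replicate 2 (0.61) or 3 (0.65), or day 5 replicate 1 (0.69), and that for miR-92a without day 8 replicate 2 (0.86).

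On day 14, 4 members were called higher and 0 lower, where limma called 45.6% of all tested miRNAs (27.2% higher and 18.4% lower). They were the 3 miRNAs of the miR-106b-25 cluster and miR-20b. The log2 fold change was 1.16 ± 0.23 (SE, adjusted p = 0.00126) for miR-25, 1.05 ± 0.33 (SE, adjusted p = 0.0184) for miR-106b and 0.95 ± 0.17 (SE, adjusted p = 0.0005) for miR-93. It was 0.67 ± 0.25 (SE, adjusted p = 0.04) for miR-20b. With the floor divided by 4, miR-93 had 1.54 (adjusted p = 0.0244). Of the 4 tested members of miR-17-92 itself, 0 were called, with 0.59 for miR-92a (adjusted p = 0.0855), 0.29 for miR-20a (0.293), -0.20 for miR-19b (0.499) and -0.37 for miR-19a (0.34). At an unadjusted p under 0.05, 1 of these 4 passed, miR-92a. It was called without syngeneic replicate 1 (0.78) or 3 (0.80, adjusted p = 0.0337), so that the 0 of 4 did not hold there. For this day, slide as a block gives the same result as leaving out syngeneic replicate 3. Without syngeneic replicate 1, miR-19a was called lower (-0.80). The 3 members of miR-106b-25 did not overlap the syngeneic arrays, which was so for 54.4% of all tested miRNAs. Within slide 1 the same 4 members were called, with 1.38, 1.32, 1.00 and 0.89 in that order. That fit leaves out syngeneic replicate 3, the highest of its group for each tested member, which raises every value. MiR-25 and miR-93 kept their calls with each array left out in turn, which again is no independent support, as the filter was not rerun. MiR-106b lost it without syngeneic replicate 1 (0.84) or 2 (0.98) or day 14 replicate 1 (0.98). MiR-20b lost it without those arrays (0.50, 0.62 and 0.54), day 14 replicate 2 (0.58), day 8 replicate 3 or day 5 replicate 1 (0.67 for each).

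On day 100, 0 members were called higher and 1 lower, where limma called 31.1% of all tested miRNAs (16.5% higher and 14.6% lower). At an unadjusted p under 0.05, 1 member was higher, miR-92a. The member called was miR-19a, with a log2 fold change of -1.05 ± 0.31 (SE, adjusted p = 0.0232). It was not detected on any array of day 100, so the fold is a bound, and the signal was at least 1.32-fold lower than in the syngeneic grafts. The call was lost without syngeneic replicate 2 (-0.90) or 3 (-0.79) or day 100 replicate 3 (-1.09). The miR-17 seed ran from -0.44 for miR-20a to 0.12 for miR-93, with adjusted p from 0.126 to 0.599. MiR-92a had 0.68 (adjusted p = 0.063), and its arrays and those of miR-19a did not overlap, which was so for 29.1% of all tested miRNAs. A slide block sets day 100 against syngeneic replicate 3 alone, the highest of its group for all 8 tested members. It called miR-19a (-1.59), miR-19b (-0.98) and miR-20a (-0.84) lower, and the fit of slide 2 alone, with the same values and its own spread, called miR-19a only (adjusted p = 0.046). The slide and the choice of that 1 array cannot be told apart here. With the floor divided by 4, the value of miR-19a was -1.78. The 4 comparisons share the same 3 syngeneic arrays.

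**Figure D2:**
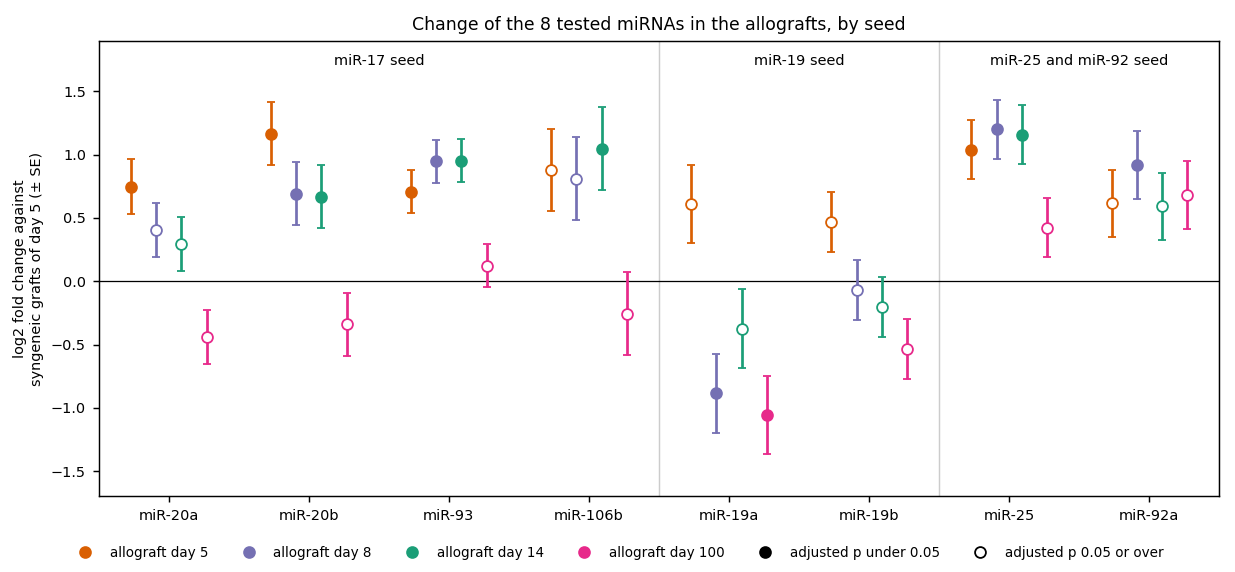
Log2 fold change (vertical axis, ± SE) of the 8 tested miRNAs in the allografts of 4 days against the 3 syngeneic grafts of day 5, grouped by seed. Of the marks, those filled had an adjusted p under 0.05, and miR-25 and miR-93 were filled on days 5, 8 and 14, miR-19a was filled below 0 on days 8 and 100, and the day 5 marks were no longer called with slide as a block.

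The day 8 and day 14 allografts, both on slide 1, were compared with 0 calls among the 8 tested members, where limma called 5.83% of all tested miRNAs, all of them lower (0% higher). At an unadjusted p under 0.05 the number was also 0 by limma, 1 by the methods' t-test without adjustment and 0 by it after Benjamini-Hochberg. The log2 fold change of day 14 over day 8 ran from -0.33 for miR-92a (adjusted p = 0.561, 95% interval -0.90 to 0.25) to 0.51 for miR-19a (adjusted p = 0.43, 95% interval -0.16 to 1.18). For these 2 the arrays did not overlap, which was so for 46.6% of all tested miRNAs.

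The largest set of calls came from the comparison of day 5 with day 100, which lie on the same slide. There 6 members were called higher on day 5 and 0 lower, where limma called 29.1% of all tested miRNAs (21.4% higher and 7.77% lower). The log2 fold change was 1.504 ± 0.25 (SE, adjusted p = 0.003) for miR-20b, 1.19 ± 0.22 (SE, adjusted p = 0.003) for miR-20a, 1.13 ± 0.33 (SE, adjusted p = 0.02) for miR-106b and 0.58 ± 0.17 (SE, adjusted p = 0.0201) for miR-93, so that the miR-17 seed was called in all 4 of its tested members. MiR-19b differed by 1.01 ± 0.24 (SE, adjusted p = 0.00898). MiR-19a differed by 1.67 ± 0.31 (SE, adjusted p = 0.003), and as it was not detected on day 100 its signal on day 5 was at least 2.01-fold higher. MiR-25 had 0.62 (adjusted p = 0.0585), and miR-92a -0.06 (adjusted p = 0.889, 95% interval -0.64 to 0.51). The arrays did not overlap for 7 members, all but miR-92a, which was so for 46.6% of all tested miRNAs. In a fit of slide 2 alone there were calls for miR-20b, miR-20a, miR-19a and miR-19b, and not for miR-106b (adjusted p = 0.0958) or miR-93 (0.0507).

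Replicate 1 of day 100 was the noisy array, and 3 of the 8 tested members lay at the floor on it. Its lowest detected signal was 7.09%, above the floor used for all arrays. MiR-106b (3.6%) and miR-25 (3.4%) were not detected on it either, yet entered the day 100 means as measured. MiR-20a, at 7.38%, lay close to that limit. Without replicate 1 of day 100, the day 5 to day 100 difference stayed called for miR-19a (1.65), miR-20b (1.30), miR-20a (1.05) and miR-19b (0.85). MiR-106b fell to 0.67 (adjusted p = 0.0543) and miR-93 to 0.50 (0.0662). With the floor divided by 4, miR-93 had 1.25 and was not called (adjusted p = 0.078). MiR-106b also lost its call without day 5 replicate 1 (1.09) or 3 (1.14), and miR-93 without day 5 replicate 1 (0.55) or 2 (0.56) or day 100 replicate 2 (0.52).

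Day 14 was called higher than day 100 in 5 members and lower in 0, where limma called 51.5% of all tested miRNAs (33% higher and 18.4% lower). The arrays did not overlap for 6 members, these 5 and miR-19a, which was so for 65% of all tested miRNAs. The log2 fold change was 1.30 ± 0.33 (SE, adjusted p = 0.00645) for miR-106b, 1.01 ± 0.25 (SE, adjusted p = 0.00599) for miR-20b, 0.83 ± 0.17 (SE, adjusted p = 0.00277) for miR-93, 0.73 ± 0.23 (SE, adjusted p = 0.0185) for miR-25 and 0.73 ± 0.22 (SE, adjusted p = 0.0131) for miR-20a. MiR-19b had 0.34 (adjusted p = 0.263) and miR-92a -0.09 (0.83). MiR-19a had 0.68 (0.0797), and against the detection limit of day 100 it was at least 1.02-fold higher. The 2 days lie on different slides. No group but the syngeneic one spans both slides, so a slide block only adds the offset between syngeneic replicate 3 and replicates 1 and 2, and its values (0.97 for miR-93 to 2.13 for miR-106b, with the same 5 members called) are no independent support. With the floor divided by 4, miR-93 had 1.49, and miR-19a had 1.41 and was called (adjusted p = 0.0336). Without replicate 1 of day 100, miR-20a (0.59) and miR-25 (0.49) lost their calls, as they did without day 14 replicate 1 (0.65 and 0.66), and miR-20a also without day 14 replicate 2 (0.63). This comparison and the previous one share the arrays of day 100.

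**Figure D3:**
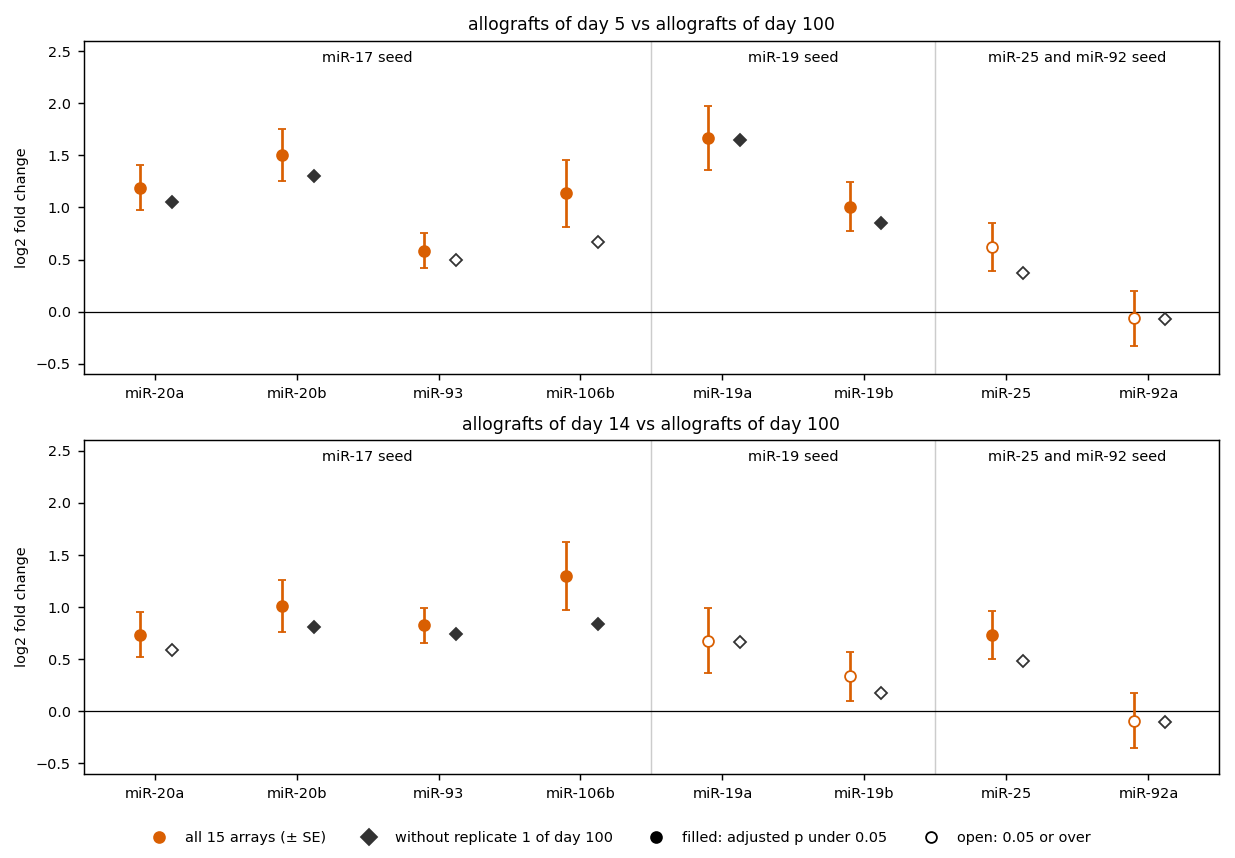
Log2 fold change (vertical axis) of day 5 over day 100 (top) and of day 14 over day 100 (bottom) for the 8 tested miRNAs, grouped by seed, from all 15 arrays (circles, ± SE) and without the noisy replicate 1 of day 100 (diamonds). Filled marks had an adjusted p under 0.05, and miR-20b stayed filled in both panels, and miR-92a lay near 0 in both.

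Members were also compared with each other by the change in their difference on the same array, set to a mean of 0 in the syngeneic grafts. Such a difference does not depend on the scaling of the array as long as both values lie above the floor. MiR-19b and miR-20a lie side by side in miR-17-92, although miR-19b has its second copy on chromosome X. Lowest, middle and highest of the 3 syngeneic arrays were -0.12, 0.04 and 0.08 on the log2 scale. In the same order, the values were -0.34, -0.25 and -0.24 on day 5, -0.54, -0.52 and -0.35 on day 8 and -0.59, -0.47 and -0.43 on day 14. All 9 of these arrays lay below the 3 syngeneic arrays, and the difference was not tested. On day 100 they were -0.21, -0.14 and 0.05, in the range of the syngeneic arrays at 1 of the 3. The ratio shows unequal change and not which of the 2 miRNAs moved.

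The same was done for miR-92a against miR-20a. The syngeneic arrays spread from -0.71 to 0.69, and the values of day 100 were 0.98, 1.00 and 1.38, above all syngeneic arrays. Between clusters, miR-106b against miR-20a gave -0.11, -0.04 and 0.15 in the syngeneic grafts, 0.25, 0.40 and 0.57 on day 8 and 0.57, 0.73 and 0.96 on day 14. All arrays of days 8 and 14 lay above the syngeneic ones. Those of day 5 (0.07, 0.12 and 0.20) and of day 100 (-0.46, 0.47 and 0.54) overlapped them. For miR-25 against miR-92a, which share a seed across clusters, the values of days 5, 8 and 14 overlapped the syngeneic range of -0.43 to 0.40. These values are descriptions with no test.

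Across the 15 arrays, the log2 signals of miR-25 and miR-93, both from miR-106b-25, had an r of 0.91, and those of miR-25 and miR-106b an r of 0.87. Within miR-17-92, miR-19b and miR-20a had 0.88, and miR-19a and miR-19b 0.82. MiR-92a had an r of 0.24 with miR-20a and -0.02 with miR-19b of its own cluster, and of 0.70 with miR-25, which shares its seed. The points share their arrays, slides, scaling and floor, and the r values are descriptions. Of the 95 tested miRNAs that are no members, the most like miR-19a were miR-21 (r = 0.84), miR-301a (0.78) and miR-29b (0.73). The most like miR-106b were miR-221 (0.89), miR-28 (0.84) and miR-140* (0.83). Without replicate 1 of day 100 these 6 values were 0.82, 0.76, 0.74, 0.82, 0.65 and 0.76 in that order.

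The 6 further relatives by cluster or seed, miR-106a, miR-18b, miR-363, miR-92b, miR-32 and miR-367, were on the array and detected on 0 of 15 arrays. Of the opposite strands of the 10 hairpins, 8 were on the array, and 1 of the 8, miR-17*, was detected on any array. It is shown because it is the only strand of the miR-17 hairpin with a detected signal.
mmu-miR-17-3p: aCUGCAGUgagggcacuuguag
Its scaled signal was 0.444%, 1.37% and 1.48% in the syngeneic grafts, where it was not detected. It was 3.77%, 3.49% and 3.13% on day 14, detected on all 3 arrays, and 2.96%, 2.15% and 3.22% on day 5, detected on replicates 1 and 2. It was not detected on days 8 and 100. It passed the filter through day 14 alone, and all 3 syngeneic values lay at the floor, so no test of that difference is given. The bound of day 14 against the lowest detected signal of the syngeneic arrays was 1.00-fold.

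Each member was measured by 2 probes. For miR-93 and miR-25, the signal came almost wholly from 1 probe, since the other was detected on 0 and on 3 arrays. For miR-20a, the 2 probes gave 0.73 and 0.75 for day 5 over the syngeneic grafts, and for miR-106b 0.99 and 0.85 for day 14. For miR-92a on day 8 they gave 0.75 and 0.88. The probes of miR-20b were unequal, with 0.41 and 1.05 on day 5, 0.05 and 0.60 on day 8 and 0.09 and 0.57 on day 14. The first of them was detected on 7 arrays and the second on 11. MiR-19a had -0.56 and -0.07 on day 8, and 1.02 and 0.32 for day 5 over day 100. Its probes were detected on 9 and 5 arrays. For miR-19b on day 8 the probes differed in sign, with -0.11 and 0.09.

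A list of 13 miRNAs known to be induced with E2F (miR-15b, miR-16) or repressed by MYC (let-7a, let-7b, let-7c, miR-26a, miR-26b, miR-29a, miR-29b, miR-29c, miR-30b, miR-34a and miR-195) was set beside the members, and all 13 were tested. On day 5, 2 were higher and 0 lower than in the syngeneic grafts. The counts were 2 and 2 on day 8, 3 and 2 on day 14, and 5 and 2 on day 100. Of all tested miRNAs, 18.4%, 23.3%, 27.2% and 16.5% were called higher on days 5, 8, 14 and 100, and 6.8%, 17.5%, 18.4% and 14.6% lower. The median over the list was -0.09, 0.12, -0.20 and 0.55 on days 5, 8, 14 and 100, beside 0.12, 0.14, 0.07 and 0.00 over all tested miRNAs. MiR-15b was higher on all 4 days, with 2.28 ± 0.25 (SE, adjusted p = 1.13e-05) on day 14, and miR-16 on days 5, 8 and 14, with 0.89 ± 0.16 (SE, adjusted p = 0.0005) on day 14. MiR-29c was lower on days 8, 14 and 100, with -0.77 ± 0.17 (SE, adjusted p = 0.00235) on day 14. Also called lower were miR-29b on days 8 (-1.08) and 100 (-0.87) and miR-26b on day 14 (-0.74). Others that MYC represses were called higher. They were miR-34a on days 14 (0.95 ± 0.28, SE, adjusted p = 0.0138) and 100 (0.85), and miR-195 on day 100 (0.89). Of the let-7 miRNAs, let-7a and let-7c were called against the syngeneic grafts on day 100 alone, where both were higher.

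Markers of cell types were set against the syngeneic grafts in the same way. Of 8 leukocyte miRNAs, 6 were tested, and 6, 4, 6 and 3 of them were called higher on days 5, 8, 14 and 100, with 0 lower. The shares over all tested miRNAs on those days were 18.4%, 23.3%, 27.2% and 16.5% for higher and 6.8%, 17.5%, 18.4% and 14.6% for lower. Their summed scaled signal came to 70.5 to 177.1% for the syngeneic arrays, against 321.8 to 836.5%, 246.0 to 287.0%, 328.8 to 447.6% and 117.2 to 166.8% on days 5, 8, 14 and 100. MiR-150, a defining miRNA of mature lymphocytes, was detected on 0 arrays, and miR-181a on arrays of day 14 alone. MiR-155, an activation miRNA of leukocytes, was detected in all allograft groups and not in the syngeneic grafts. Of the 6 hepatocyte miRNAs, 4, 6, 6 and 4 were called lower on these days and 0 higher, and their summed signal was 3105 to 3704% in the syngeneic grafts and 1364 to 1760% on day 14. Of 3 erythroid miRNAs, 2 were tested. MiR-451 was called higher on days 5, 8 and 14 and miR-144 lower on day 8, with 0 called on day 100. The summed signal of the 3 was 59.4 to 121.2% in syngeneic grafts and 182.3 to 248.0% on day 14, the day with the highest values, and miR-486 was detected on day 14 alone. Of 5 endothelial and stromal miRNAs on the array, 2 were tested and 0 called, at 81.7 to 103.2% in the syngeneic grafts and 100.7 to 116.7% in the allografts. Between days 14 and 8, 0 leukocyte miRNAs were called, and 4 hepatocyte miRNAs were lower on day 14 (all tested: 0% higher, 5.83% lower). For day 14 over day 100, 6 leukocyte miRNAs were higher and 4 hepatocyte miRNAs lower (all tested: 33% higher, 18.4% lower). For day 5 over day 100, 5 leukocyte and 2 hepatocyte miRNAs were higher and 0 lower (all tested: 21.4% higher, 7.77% lower). The part of these cell types in the changes of the members was not tested.

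The background correction, changed together with an offset, also bore on the calls. With normexp (offset 50) on the median spot and local background intensities in its place, 1 of the 25 calls in the 7 comparisons stayed, that of miR-19b for day 5 over day 100 (0.49, adjusted p = 0.0491). MiR-20b, miR-25 and miR-93 then had log2 fold changes of -0.29, -0.20 and -0.29 on day 14 over the syngeneic grafts, beside a median of -0.36 over all tested miRNAs. The directions of the 25 calls held under the 4 other scalings (75th percentile over all mouse miRNAs, median, quantile normalization and none).

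**Figure D4:**
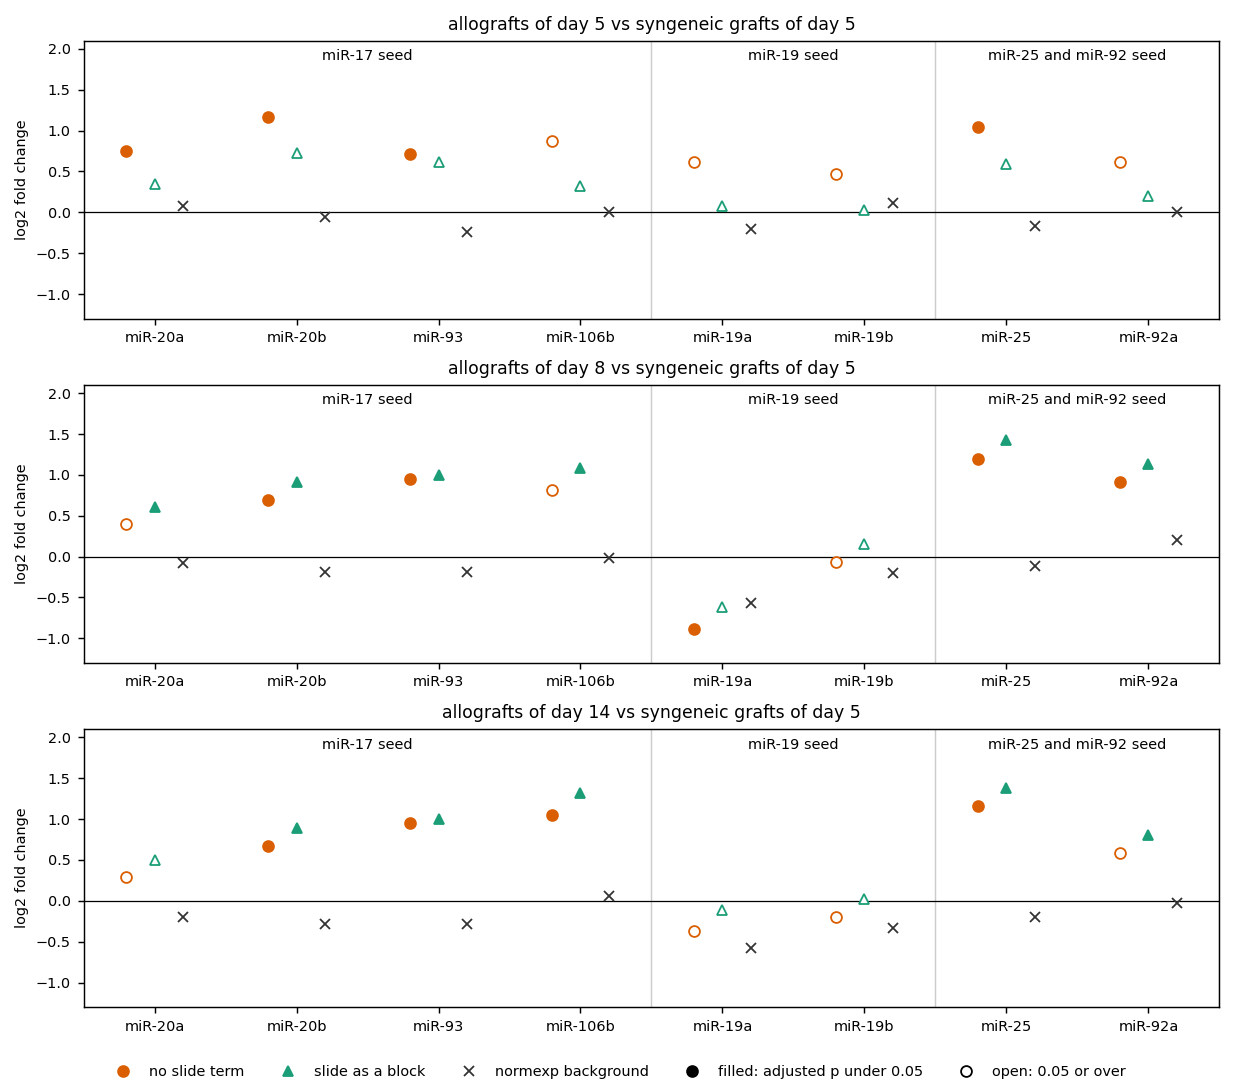
Log2 fold change (vertical axis) of the 8 tested miRNAs against the syngeneic grafts on days 5, 8 and 14, by seed, without a slide term (circles), with slide as a block (triangles) and with the normexp background correction (crosses, none of which had an adjusted p under 0.05 except that of miR-19a on day 14). Filled circles and triangles had an adjusted p under 0.05, with no filled triangle on day 5, those of miR-20b, miR-93, miR-106b, miR-25 and miR-92a on days 8 and 14, and that of miR-20a on day 8 alone.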

How the data were processed

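The authors deposited, for each of 15 arrays, the spot table of Agilent Feature Extraction (version 9.5.1.1 per the file headers), and the intensity of each spot used here is its background-subtracted processed signal, with no normalization between arrays. The series' table of processed values was not used. Control and outlier spots were left out, spots were averaged per probe, and probes were summed per miRNA. Each array was scaled to its 75th percentile, taken over the 52 miRNAs that all 15 arrays detected. Lower values were then set to a floor of 2.70% of that percentile, which is the median across arrays of the dimmest detected signal, before log2 was taken. The floor holds 8.28% of all values in the test, which can understate the changes of dim miRNAs. It also narrows the spread within a group, which can make a call easier. MiR-93 had an SD of 0.08 in the syngeneic grafts, with 2 of 3 arrays at the floor. Mouse miRNAs entered the test where some group had them detected on each of its 3 arrays, and these 103 were fitted with limma (version 3.58.1, R 4.3.3), 1 mean per group over all 15 arrays, with Benjamini-Hochberg adjustment over the 103 within each comparison and a threshold of 0.05. Every adjusted p is from this fit unless a setting is named. The study's methods name a filter on dim signals (1.5 times the mean) and a t-test, both tried as alternatives. Each array is 1 graft. The limma p-values rest on the spread between grafts within groups, pooled over all 5 groups and moderated across the tested miRNAs. They do not rest on the 2 groups compared alone. The fits were also run on simulated data with known changes. Those were independent normal values without slides, a floor or a noisy array, so that run cannot check these limits. No pair of replicates held the same value for any miRNA.

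The members, the lists and the tests were chosen with earlier results of these data known. All 10 members are named, with their relatives, opposite strands, the E2F and MYC list, the markers, and the 3 non-member miRNAs most alike by Pearson r to miR-106b and to miR-19a, the next tested member of the cluster after miR-17. A bound of at least a given fold sets the bright group's mean against the mean, per array of the dim group, of the higher of the lowest detected signal and the miRNA's own. Alternatives were other scalings, probe summaries, filters, floor, moderation, samples in the fit, tests, normexp (on median spot signals, as the spot tables used here give medians), and replicate number or slide as a block. The fits within 1 slide were added after seeing the data. The other steps ran in Python 3.11.15 (pandas 2.3.3, numpy 2.4.6, matplotlib 3.10.9).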

Additional observations from a re-analysis of the deposited data

Results flagged for a closer look

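The effect of an allograft against the same syngeneic grafts differed between days by a test of the difference itself for several members, which is the contrast of the 2 days. Between day 14 and day 100, the log2 difference was 1.30 for miR-106b, 0.73 for miR-20a, 1.01 for miR-20b, 0.73 for miR-25 and 0.83 for miR-93. Between day 5 and day 100, it was 1.13 for miR-106b, 1.67 for miR-19a, 1.01 for miR-19b, 1.19 for miR-20a, 1.504 for miR-20b and 0.58 for miR-93. All were higher on the earlier day. MiR-92a passed the test in neither. Groups of 3 are too small for a test of a single outlying array, and none was run.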

How the results depend on the processing

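The 25 calls of a member gave 797 values under the alternatives, of which 618 kept direction and call, 168 kept the direction and lost the call, and 11 changed direction, all of the last under normexp.  Normexp was run with an offset of 50 intensity units. Without it, miR-93, for example, had 7.59, 5.76 and 18.4 units in the syngeneic grafts and 54.1, 39.4 and 46.6 on day 14. The 75th percentile used for scaling was 395 to 616 units in the syngeneic grafts and 750 to 1018 on day 14. The part of the offset in the 11 changes of direction was not tested, and neither was the cause of the lost calls.

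The number of members called was 4, 5, 4 and 1 on days 5, 8, 14 and 100 against syngeneic, 0 for day 14 against day 8, 5 for day 14 against day 100, 6 for day 5 against day 100 and 7 in the F test. It differed by over 1.5 times as follows. With the 75th percentile over all mouse miRNAs it was 1 for day 5 against syngeneic, 3 for day 8 against syngeneic, 2 for day 14 against syngeneic, 0 for day 100 against syngeneic, 1 for day 14 against day 100, 3 for day 5 against day 100 and 3 for the F test. Of all 103 tested miRNAs, this scaling called 10, 26, 31 and 8 on days 5, 8, 14 and 100 against syngeneic. With quantile normalization it was 2 for day 5 against syngeneic, 2 for day 100 against syngeneic and 2 for day 14 against day 100, with median scaling 3 for day 100 against syngeneic, and with no scaling 7 for day 5 against syngeneic and 3 for day 5 against day 100. Against syngeneic, quantile normalization called 20 of all 103 on day 5 and 32 on day 100. Median scaling called 40 of the 103 on day 100, and no scaling 25 on day 5. Under normexp it was 0 for day 5 against syngeneic, 0 for day 8 against syngeneic, 1 for day 14 against syngeneic, 0 for day 100 against syngeneic, 0 for day 14 against day 100, 1 for day 5 against day 100 and 0 for the F test, the call on day 14 being miR-19a, lower (-0.58). Over all 103, normexp called 5, 20, 52 and 14 on days 5, 8, 14 and 100 against syngeneic. With no filter it was 0 for day 5 against syngeneic, 2 for day 8 against syngeneic, 2 for day 14 against syngeneic, 0 for day 100 against syngeneic, 1 for day 14 against day 100, 3 for day 5 against day 100 and 3 for the F test. Of the 567 miRNAs then in the test, 5, 21, 28 and 6 were called on days 5, 8, 14 and 100 against syngeneic. The filter to miRNAs detected on all arrays left miR-19b and miR-92a, and gave 0 for day 5 against syngeneic, 1 for day 8 against syngeneic, 0 for day 14 against syngeneic, 0 for day 14 against day 100, 1 for day 5 against day 100 and 2 for the F test. Of its 52 miRNAs, 15, 27 and 31 were called on days 5, 8 and 14 against syngeneic. With the floor divided by 4 it was 2 for day 5 against syngeneic and 3 for day 8 against syngeneic, beside 18 and 38 of all 103. With only the groups compared it was 0 for day 5 against syngeneic, 2 for day 8 against syngeneic, 0 for day 100 against syngeneic and 1 for day 14 against day 8. The numbers over all 103 were then 1, 32, 2 and 19 in the same order. The methods' t-test gave 2 for day 8 against syngeneic, 0 for day 100 against syngeneic and 1 for day 14 against day 8 without adjustment, and 1 for day 5 against syngeneic, 1 for day 8 against syngeneic, 1 for day 14 against syngeneic, 0 for day 100 against syngeneic, 2 for day 14 against day 100 and 2 for day 5 against day 100 after Benjamini-Hochberg. Without adjustment, the numbers over all 103 were 40, 19 and 34 in that order. After Benjamini-Hochberg they were 2, 18, 21 and 1 on days 5, 8, 14 and 100 against syngeneic. With slide as a block it was 0 for day 5 against syngeneic and 3 for day 100 against syngeneic, and within slide 2 0 for day 5 against syngeneic. The slide block called 5 of all 103 on day 5 and 16 on day 100 against syngeneic. For day 100 against syngeneic the number of members called was 2 each with the brightest probe, the software's total signal, and trend and robust moderation. These settings called 33, 43 and 37 of all 103 there. The methods' filter left 0 members to test, so it gave no value.

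The direction turned in these values. Under normexp, which moved the median of all tested miRNAs to between -0.36 and -0.23 in the comparisons with the syngeneic grafts, they were -0.21 for miR-19a, -0.058 for miR-20b, -0.17 for miR-25 and -0.24 for miR-93 (day 5 against syngeneic), -0.015 for miR-106b, -0.078 for miR-20a, -0.19 for miR-20b, -0.12 for miR-25 and -0.18 for miR-93 (day 8 against syngeneic), -0.20 for miR-20a, -0.29 for miR-20b, -0.20 for miR-25, -0.030 for miR-92a and -0.29 for miR-93 (day 14 against syngeneic), -0.17 for miR-25 and -0.25 for miR-93 (day 100 against syngeneic), -0.012 for miR-19a (day 14 against day 8), -0.035 for miR-25 and -0.035 for miR-93 (day 14 against day 100), -0.0013 for miR-25 (day 5 against day 100). With no scaling, which moved that median to between 0.33 and 0.71, they were 0.56 for miR-19b (day 8 against syngeneic), 0.34 for miR-19a and 0.57 for miR-19b (day 14 against syngeneic), 0.30 for miR-106b, 0.020 for miR-19b and 0.12 for miR-20a (day 100 against syngeneic), 0.13 for miR-92a (day 14 against day 100). Quantile normalization gave -0.090 for miR-20a (day 14 against syngeneic), median scaling 0.016 for miR-92a (day 14 against day 100), and the brightest probe 0.031 for miR-92a (day 5 against day 100). With slide as a block they were 0.16 for miR-19b (day 8 against syngeneic), 0.019 for miR-19b (day 14 against syngeneic), -0.025 for miR-25 (day 100 against syngeneic), 0.54 for miR-92a (day 14 against day 100), and within slide 1 0.16 for miR-19b (day 8 against syngeneic), 0.019 for miR-19b (day 14 against syngeneic), within slide 2 -0.025 for miR-25 (day 100 against syngeneic).

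Leaving out 1 array at a time, the number called was 3 to 7 on day 5, 2 to 6 on day 8, 2 to 5 on day 14 and 0 to 3 on day 100 against the syngeneic grafts, 3 to 6 for day 14 and 4 to 7 for day 5 against day 100, and 6 to 8 in the F test. The direction turned for uncalled values that ranged over -0.28 to 0.16 for miR-19b (day 8 against syngeneic), -0.42 to 0.019 for miR-19b (day 14 against syngeneic), -0.53 to 0.21 for miR-106b (day 100 against syngeneic), -0.030 to 0.21 for miR-93 (day 100 against syngeneic), -0.17 to 0.043 for miR-92a (day 14 against day 100) and -0.14 to 0.035 for miR-92a (day 5 against day 100). Without replicate 1 of day 100, miR-106b was also called on days 5 (0.88) and 8 (0.81) and miR-25 on day 100 (0.67). Without syngeneic replicate 3, miR-106b (1.09) and miR-20a (0.61) were also called on day 8, miR-92a on days 14 (0.80) and 100 (0.89) and miR-25 on day 100 (0.65). Without syngeneic replicate 1, miR-19a (-0.80) and miR-92a (0.78) were called on day 14, miR-19a also for day 14 against day 100 (0.68), and miR-19b (-0.75) and miR-92a (0.87) on day 100. MiR-106b was also called on day 8 without replicate 3 of day 100 (0.81). MiR-25 was called for day 5 against day 100 without syngeneic replicate 2 or 3 (0.62 for each) or replicate 3 of day 100 (0.80).

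The replicate numbers did not pair the samples: deviations from the group means correlated between -0.65 and 0.45 (median -0.05) over the 30 pairs of arrays with the same number, and between -0.43 and 0.52 (median 0.02) over the 60 with another. With the replicate number as a block, 4, 4, 3, 1, 0, 5 and 6 members were called in the same order and 7 in the F test, and the calls of miR-20b against the syngeneic grafts were lost (0.69 with an adjusted p of 0.0517 for day 8, and 0.67 with 0.05 for day 14).

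Dim signals limit miR-93, miR-20b, miR-19a and miR-25, which lay at or near the floor on arrays of the syngeneic grafts or of day 100. In the syngeneic grafts, miR-25 was detected on 1 array of 3 and lay at the floor on 1. With the floor divided by 4, miR-20b lost its calls on days 5, 8 and 14 against syngeneic (adjusted p = 0.0887, 0.282 and 0.279), and miR-19a its call on day 8 (adjusted p = 0.181).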
